A study of Macaca mulatta with 45 samples.

Results

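The aryl hydrocarbon receptor axis was followed in the fat of rhesus monkeys through 6 genes, AHR, AHRR, ARNT, CYP1A1, CYP1B1 and TIPARP. All probes annotated to these symbols were taken, which gave 7 probes among the 47231 used on the array, and 6 genes among the 20046 that had a probe of their own. AHR had 2 probes and each of the other genes had 1. The members were listed by symbol, with earlier results of these data known.

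AHR is a receptor of the bHLH-PAS family that waits in the cytoplasm in a complex with the chaperone HSP90 and the co-chaperone p23 (encoded by PTGES3). On binding a ligand it moves to the nucleus, pairs with ARNT and activates genes that carry its response element. CYP1A1 and CYP1B1 are the classic targets and encode cytochrome P450 enzymes that oxidise aromatic compounds and steroids. AHRR, another target, encodes a repressor that competes for ARNT, and TIPARP encodes an ADP-ribosyltransferase that is induced by the receptor and restrains it. Resveratrol, a plant polyphenol, is known in cultured cells as a compound that interferes with this receptor.

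The study assigned 24 adult male monkeys aged 7 to 13 years to 3 diets for 24 months. The standard diet (4 animals) held 13% of its energy as fat and under 5% sucrose by weight. HFS, the diet high in fat and sucrose, was given to 10 animals and held 42% fat energy and about 27% sucrose. The resveratrol group (10 animals) ate the same HFS diet and received resveratrol in a treat before meals, a daily total of 80 mg that was raised to 480 mg after 1 year, while the other animals received a placebo treat. At month 0 all animals were still on commercial chow, so the names of the diets at that time describe what the animals ate later. Subcutaneous fat gave 4 standard-diet, 10 HFS and 10 resveratrol arrays at month 0 and 2, 5 and 4 at month 24. Visceral fat at month 24 gave 2, 4 and 4 arrays, for 45 in all. The arrays of a group came from different animals, per the names in the column headers.

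RNA of the whole tissue was hybridised to an array of human probes, so a monkey sequence that differs from the human one can dim a probe, which was not tested. Levels are normalized log2 intensities, read between arrays for 1 probe and not between probes. The number of detected probes ran from 14386 to 18673, and the number of arrays limits the precision. The subcutaneous arrays formed 2 sets that differ in the decimals and brightness of the deposited values, called sets A and B here. All month 24 arrays lay in set A (19 arrays) with 8 of month 0, set B (16 arrays) held the rest of month 0, and the 10 visceral arrays formed a set of their own. Depot and array set therefore cannot be told apart. The adipocyte markers PLIN1, CIDEC, FABP4, LEP and LIPE were detected on all 45 arrays, LPL on 43 and ADIPOQ on 5. Of the mesothelial markers, KRT19 was detected on all 10 visceral arrays and on no subcutaneous one, and MSLN on 11 arrays including the 10 visceral. By the probe detected most often, WT1 was detected on 11 arrays, UPK3B on 17, CLDN15 on 29 and CALB2 on 44. On visceral arrays these counts were at most 10, 5, 9 and 10, so not every marker separated the depots.

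The receptor and 2 of its targets were measurable, while its partner, its repressor and its best known target were not. AHR (both probes), CYP1B1 and TIPARP were detected on 45 of 45 arrays. AHRR, ARNT and CYP1A1 were detected on 0 of 45, where detected means a detection p under 0.05. The lowest detection p on any array was 0.404 for AHRR, 0.23 for ARNT and 0.358 for CYP1A1. Their levels spanned 4.29 to 4.59 (AHRR), 4.29 to 4.68 (ARNT) and 4.24 to 4.59 (CYP1A1), below the lowest level of any detected probe, which lay between 4.83 and 5.11 depending on the array. None of the 3 passed the filter on detection, so they have no test and no fold change here. Without that filter their differences in the 16 comparisons lay between -0.11 and 0.12. Of these differences 1 passed an adjusted p of 0.05, for CYP1A1 between the depots in the resveratrol group (0.11, limma adjusted p = 0.0349), and since all arrays of both groups were below detection it is not read as a change. A level below detection on these human probes does not show that the genes were silent.

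**Figure D1:**
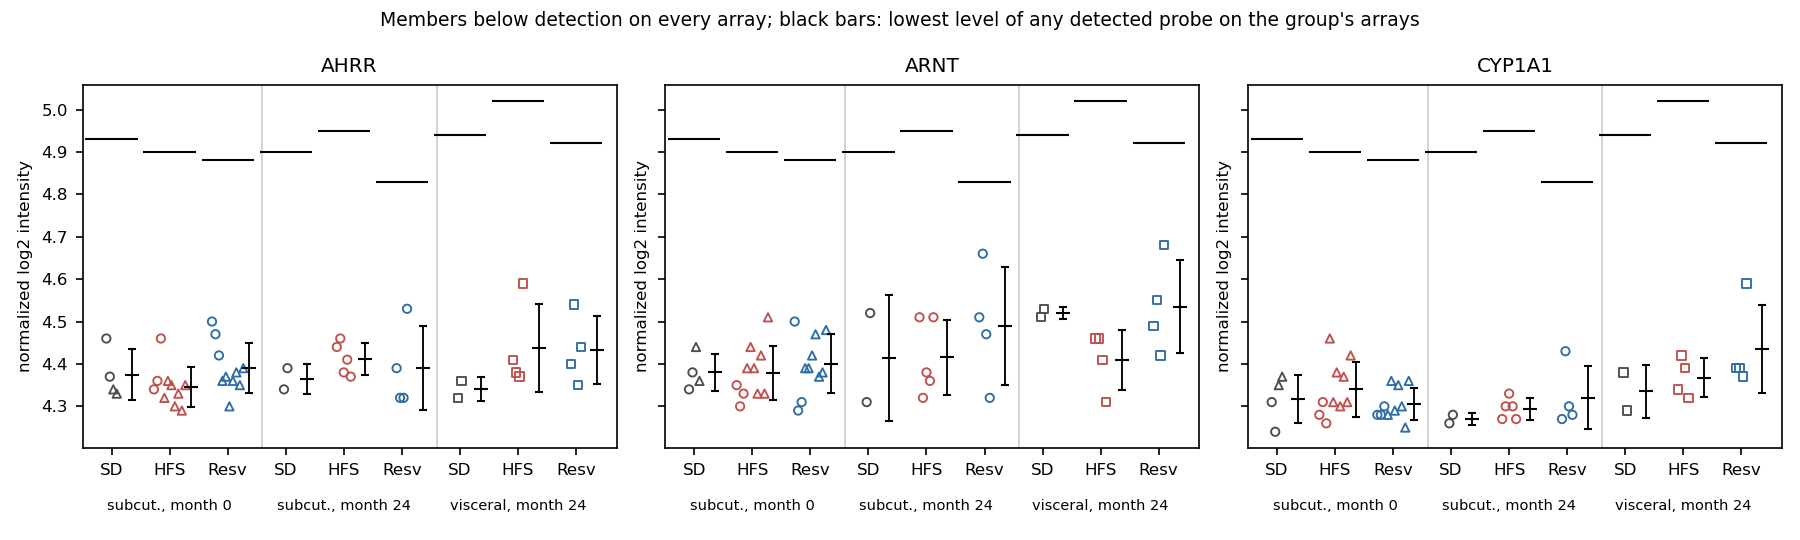
Normalized log2 intensity (vertical axes) of AHRR, ARNT and CYP1A1 on each of the 45 arrays, by diet within depot and month, with black points and bars for mean ± standard deviation; circles are set A, triangles set B and squares the visceral set. Horizontal bars mark the lowest level of any detected probe on the arrays of a group, and every point of the 3 genes lies below them.

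On the brighter AHR probe (ILMN_1812640), which stands for the gene in the tests, the mean level was highest in subcutaneous fat at month 24, lower there at month 0, and lowest in visceral fat. At month 24 the subcutaneous levels were 12.40 and 12.58 on the standard diet. They were 12.31, 12.38, 12.48, 12.59 and 12.66 on HFS. They were 12.23, 12.29, 12.49 and 12.61 with resveratrol, so the 3 diets covered the same range. At month 0 the levels were 11.82, 12.11, 12.34 and 12.37 in the animals later on the standard diet. They ran from 11.62 over a median of 11.96 to 12.16 in the HFS animals and from 11.87 over 12.18 to 12.62 in the resveratrol animals. In visceral fat they were 11.44 and 12.10 on the standard diet. They were 11.42, 11.51, 11.55 and 11.70 on HFS. They were 11.19, 11.69, 11.72 and 12.01 with resveratrol, so the visceral groups overlapped too. In the order of the 9 group means, only the step from the lowest month 24 subcutaneous group (12.41 ± 0.17, standard deviation, n = 4) to the highest month 0 group (12.18 ± 0.22, n = 10) exceeded the larger standard deviation of the neighbours.

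**Figure D2:**
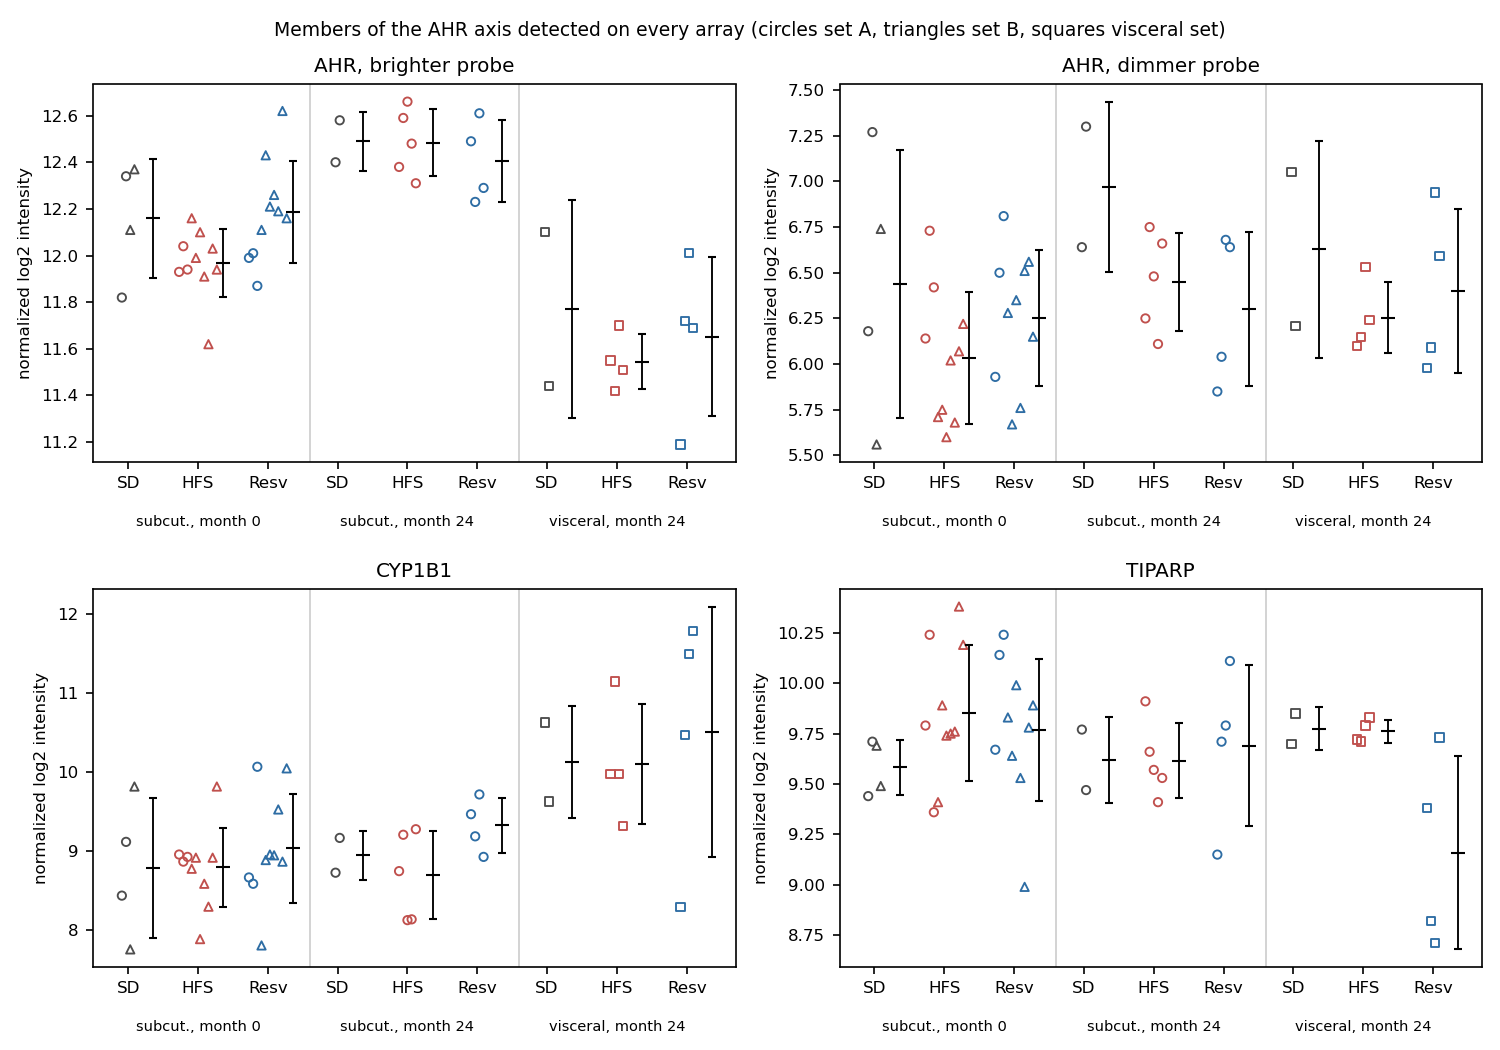
Normalized log2 intensity (vertical axes, not starting at 0) on each array for the 2 probes of AHR and those of CYP1B1 and TIPARP, by diet (SD standard diet, HFS, Resv resveratrol) within depot and month, with mean ± standard deviation in black. The brighter AHR probe falls from subcutaneous month 24 to visceral fat, CYP1B1 is highest in visceral fat, and TIPARP is lowest in the visceral resveratrol group at 9.16 ± 0.48.

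Over 24 months on HFS, AHR rose in subcutaneous fat by 0.52 ± 0.11 on the log2 scale (standard error, 5 arrays against 10, limma adjusted p = 0.0215). All 5 arrays at month 24 lay above all 10 at month 0, from 11.97 ± 0.15 to 12.49 ± 0.14. In this comparison 1.01% of the 12130 genes tested passed, and 0.857% had groups that did not overlap. The other 2 measurable members did not pass. CYP1B1 differed by -0.10 ± 0.32 and TIPARP by -0.23 ± 0.17. On the standard diet AHR differed over time by 0.33 ± 0.18 (2 arrays against 4, adjusted p = 0.676) and both later arrays lay above all 4 earlier ones, as held for 7.44% of genes, while 0% passed. With resveratrol it differed by 0.22 ± 0.12 (4 against 10, adjusted p = 0.239), with overlap, where 11.4% passed. These did not pass, and the difference between the resveratrol and the HFS change over time was -0.30 ± 0.16 (adjusted p = 0.563, 0.841% passed).

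The same animals were followed in 11 cases. AHR was higher at month 24 in 10 of them, including 2 of 2 on the standard diet, 5 of 5 on HFS and 3 of 4 with resveratrol. The median change within an animal was 0.41, 0.55 and 0.36 in these diets, and the exception was a resveratrol animal that changed by -0.32. With the animal as a fixed block the HFS change was 0.55 (adjusted p = 0.102) and with the replicate block 0.47 (adjusted p = 0.275), so the call rests on the unpaired fit. In each of these block fits 0 of the 12130 genes tested passed. Among set A arrays alone the HFS change was 0.51 (adjusted p = 0.105) and the resveratrol change 0.45 (adjusted p = 0.0991), and with the set as a covariate the HFS change was 0.63 (adjusted p = 0.00238). Without HFS replicate 2 of month 24 the change was 0.49 (adjusted p = 0.068), and without replicate 3 it was 0.48 (adjusted p = 0.0729). The size of a change in bright probes depended on the scaling. When arrays were scaled to 1 median instead of quantiles, the median of all genes moved from -0.01 to -0.32 in this comparison, the median of the 727 genes with a level above 11 moved from -0.01 to -0.53, and AHR came to 0.01, which is 0.33 above the median gene. Beside this change, the macrophage markers had a mean level of 7.82 to 10.68 at month 0 and 9.90 to 10.42 at month 24 on HFS, with 7 of 7 tested markers above 0 and 0 passing. The erythroid markers had 9.74 to 10.79 and 8.93 to 9.82, with 4 of 5 below 0 and 0 passing. Their part in the result was not tested. In whole tissue, fewer cells of a type and less RNA per cell cannot be told apart.

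**Figure D3:**
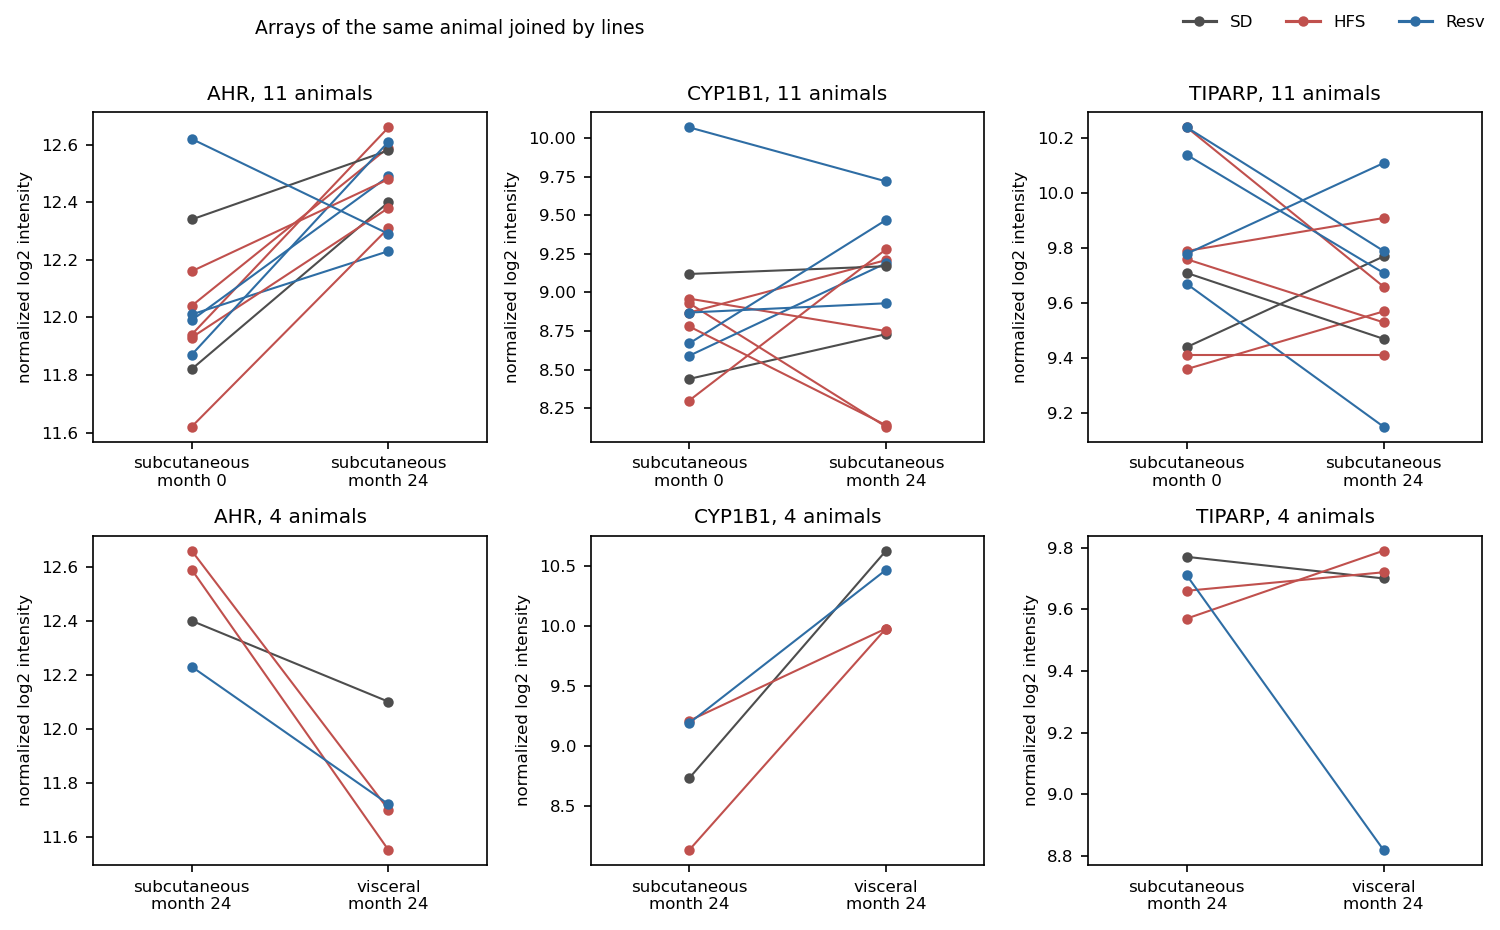
Normalized log2 intensity of AHR (brighter probe), CYP1B1 and TIPARP in arrays of the same animal joined by lines, over time in subcutaneous fat (upper row, 11 animals) and from subcutaneous to visceral fat at month 24 (lower row, 4 animals), coloured by diet. AHR rises over time in 10 of 11 animals and is lower in visceral fat in 4 of 4, where CYP1B1 is higher in 4 of 4.

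Between the depots at month 24, AHR was lower in visceral than in subcutaneous fat. The difference was -0.94 ± 0.15 on HFS (4 arrays against 5, limma adjusted p = 1.3e-05) and -0.75 ± 0.16 with resveratrol (4 against 4, adjusted p = 0.000225), and all visceral arrays lay below all subcutaneous ones in both. On the standard diet it was -0.72 ± 0.22 (2 against 2, adjusted p = 0.0714), without overlap and without passing, and it ranged from -1.05 without visceral replicate 1 (adjusted p = 0.0166) to -0.39 without visceral replicate 2 (adjusted p = 0.539). Of the 12917 genes tested, 18.7% passed between depots on HFS, 35.8% with resveratrol and 2.39% on the standard diet, so AHR was 1 of very many genes that differed. All visceral below all subcutaneous arrays held for 9.31%, 15.6% and 18.8% of genes in these diets. In the 4 animals measured in both depots the difference ran from -1.05 to -0.30. Under median scaling it was -0.45 on HFS (adjusted p = 0.307), -0.73 with resveratrol (adjusted p = 0.0609) and -0.08 on the standard diet (adjusted p = 0.945). Relative to the median gene these were -0.58, -0.75 and -0.35. Under this scaling the median of the 727 genes with a level above 11 was 0.55, 0.06 and 0.62 in these diets. The mesothelial markers had a mean level of 6.21 to 6.86 in visceral and 5.17 to 5.38 in subcutaneous fat on HFS, with 3 of 6 passing as higher. With resveratrol it was 6.34 to 7.64 against 5.07 to 5.43, with 4 of 6 passing. Their part in the result was not tested.

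The second AHR probe (ILMN_2162799) was dimmer and did not show the depot difference. Its levels ran from 5.56 to 7.30 over the 45 arrays. Visceral minus subcutaneous it gave -0.20 ± 0.28 on HFS (adjusted p = 0.693 over all probes) and 0.10 ± 0.30 with resveratrol (adjusted p = 0.845). Over time on HFS it gave 0.41 ± 0.23 (adjusted p = 0.408), in the direction of the brighter probe. The mean of both probes gave 0.47 for the HFS change over time (adjusted p = 0.0939) and -0.33 for the depots with resveratrol (adjusted p = 0.181). As a description, the probes correlated at Pearson r = 0.894 over the 10 visceral arrays, 0.383 over the 35 subcutaneous and 0.281 over all 45, which share depots, sets and normalization. The depot difference of AHR is thus a result of 1 of its 2 probes, and which of them follows the transcript in the monkey was not tested.

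Resveratrol did not shift AHR beyond its error in either depot. Against HFS the difference was 0.11 ± 0.20 in visceral fat (4 against 4, 95% interval -0.33 to 0.54) and -0.08 ± 0.14 in subcutaneous fat at month 24 (4 against 5, -0.36 to 0.20). Its sign in subcutaneous fat turned to 0.32 under median scaling, where the median gene moved from -0.04 to 0.37. HFS against the standard diet gave -0.23 ± 0.24 in visceral fat and 0 ± 0.17 in subcutaneous fat. The difference of the resveratrol effect between the depots was 0.19 ± 0.22 (adjusted p = 0.697). Before the diets, at month 0, the animals later given resveratrol were at 0.22 ± 0.09 against those later on HFS (unadjusted p = 0.0214, adjusted p = 1), and within set A this was -0.02. Here 2.37% of genes had an unadjusted p under 0.05 and 0 passed.

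CYP1B1, the measurable cytochrome target, was higher in visceral fat and varied more than most genes. Its level in visceral fat was 9.63 and 10.63 on the standard diet. It was 9.32, 9.98, 9.98 and 11.15 on HFS. It was 8.30, 10.47, 11.50 and 11.79 with resveratrol, so that group held both the lowest and the highest visceral arrays. In subcutaneous fat at month 24 it was 8.73 and 9.17 on the standard diet. It was 8.13, 8.14, 8.75, 9.21 and 9.28 on HFS. It was 8.93, 9.19, 9.47 and 9.72 with resveratrol. At month 0 it ran from 7.76 over a median of 8.78 to 9.82 in standard-diet animals, from 7.89 over 8.90 to 9.82 in HFS animals and from 7.81 over 8.92 to 10.07 in resveratrol animals. The standard deviation over 45 arrays was 0.91, larger than in 95.3% of the probes kept, against 0.35 for the brighter AHR probe and 0.34 for TIPARP. In the order of the group means the visceral groups came first, from 10.51 ± 1.58 to 10.11 ± 0.76, and only the step from there to 9.33 ± 0.34 in the subcutaneous resveratrol group exceeded the larger standard deviation.

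On HFS, CYP1B1 was higher in visceral than in subcutaneous fat by 1.40 ± 0.48 (4 against 5, limma adjusted p = 0.0348), with all visceral above all subcutaneous arrays, as for 12.6% of genes. The call was narrow. It was lost without visceral HFS replicate 1 (1.45, adjusted p = 0.0592), 2 (1.06, adjusted p = 0.161) or 3 (1.45, adjusted p = 0.0575), and without subcutaneous HFS replicate 1 (1.42, adjusted p = 0.0551), 3 (1.26, adjusted p = 0.078) or 4 (1.26, adjusted p = 0.0762). With resveratrol the difference was 1.19 ± 0.51 (adjusted p = 0.0634) and on the standard diet 1.18 ± 0.72 (adjusted p = 0.433), and neither passed. The standard-diet arrays did not overlap, as for 22.6% of genes. The resveratrol difference rested on single arrays. It was 1.92 (adjusted p = 0.00103) without visceral replicate 1, the array at 8.30, but 0.86 (adjusted p = 0.237) without replicate 3 and 0.76 (adjusted p = 0.282) without replicate 4. On the standard diet it ran from 0.68 without visceral replicate 1 to 1.68 without replicate 2. All 4 animals with both depots had more CYP1B1 signal in visceral fat, by a median of 1.56 and at least 0.77. Resveratrol against HFS gave 0.63 ± 0.39 in subcutaneous fat (95% interval -0.16 to 1.41, adjusted p = 0.529), with 4 of 4 arrays above the HFS mean, and 0.41 ± 0.67 in visceral fat (-1.07 to 1.89, adjusted p = 0.723). In visceral fat it ranged from -0.02 to 1.15 as single arrays were left out.

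TIPARP was level in 8 of the 9 groups, with means from 9.58 to 9.85, and lower in visceral fat with resveratrol without passing. The visceral levels were 9.70 and 9.85 on the standard diet. They were 9.71, 9.72, 9.79 and 9.83 on HFS. They were 8.71, 8.82, 9.38 and 9.73 with resveratrol, so 3 of these 4 arrays lay below all HFS arrays and the fourth lay among them. The difference was -0.60 ± 0.22 (unadjusted p = 0.0202, limma adjusted p = 0.147, 4 of 4 below the HFS mean). In this comparison 23.7% of the 11657 genes had an unadjusted p under 0.05 and 0 passed, so the share of genes like TIPARP was high. Against the standard diet it was -0.61 ± 0.27 (adjusted p = 0.494), a comparison that shares the resveratrol arrays. In subcutaneous fat at month 24 the levels were 9.47 and 9.77 on the standard diet. They were 9.41, 9.53, 9.57, 9.66 and 9.91 on HFS. They were 9.15, 9.71, 9.79 and 10.11 with resveratrol, a difference from HFS of 0.07 ± 0.21 (95% interval -0.36 to 0.50). The resveratrol effect in visceral minus that in subcutaneous fat was -0.67 ± 0.31 (unadjusted p = 0.0356, adjusted p = 0.227), where 18.7% of genes had an unadjusted p under 0.05. Between depots with resveratrol TIPARP differed by -0.53 ± 0.22 (adjusted p = 0.0629), and by 0.15 ± 0.21 on HFS. It passed with resveratrol without visceral replicate 4 (-0.72, adjusted p = 0.0161) or subcutaneous replicate 1 (-0.71, adjusted p = 0.0164), while without visceral replicate 3 it was -0.38 (adjusted p = 0.241) and without subcutaneous replicate 4 -0.39 (adjusted p = 0.231). At month 0 the levels were 9.44, 9.49, 9.69 and 9.71 in the standard-diet animals, from 9.36 over a median of 9.78 to 10.38 in HFS animals and from 8.99 over 9.81 to 10.24 in resveratrol animals. Over time TIPARP was higher in 4 and lower in 6 of the 11 animals, and the remaining animal did not move at 2 decimals. In visceral fat 15156 to 16842 probes were detected with resveratrol and 15040 to 15415 on HFS. With that number as a covariate the resveratrol difference of TIPARP was -0.58 (adjusted p = 0.771). Smooth muscle and pericyte markers had a mean level of 9.17 to 10.61 against 8.51 to 9.18, with 7 of 7 above 0 and 0 passing, and their part in the result was not tested.

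**Figure D4:**
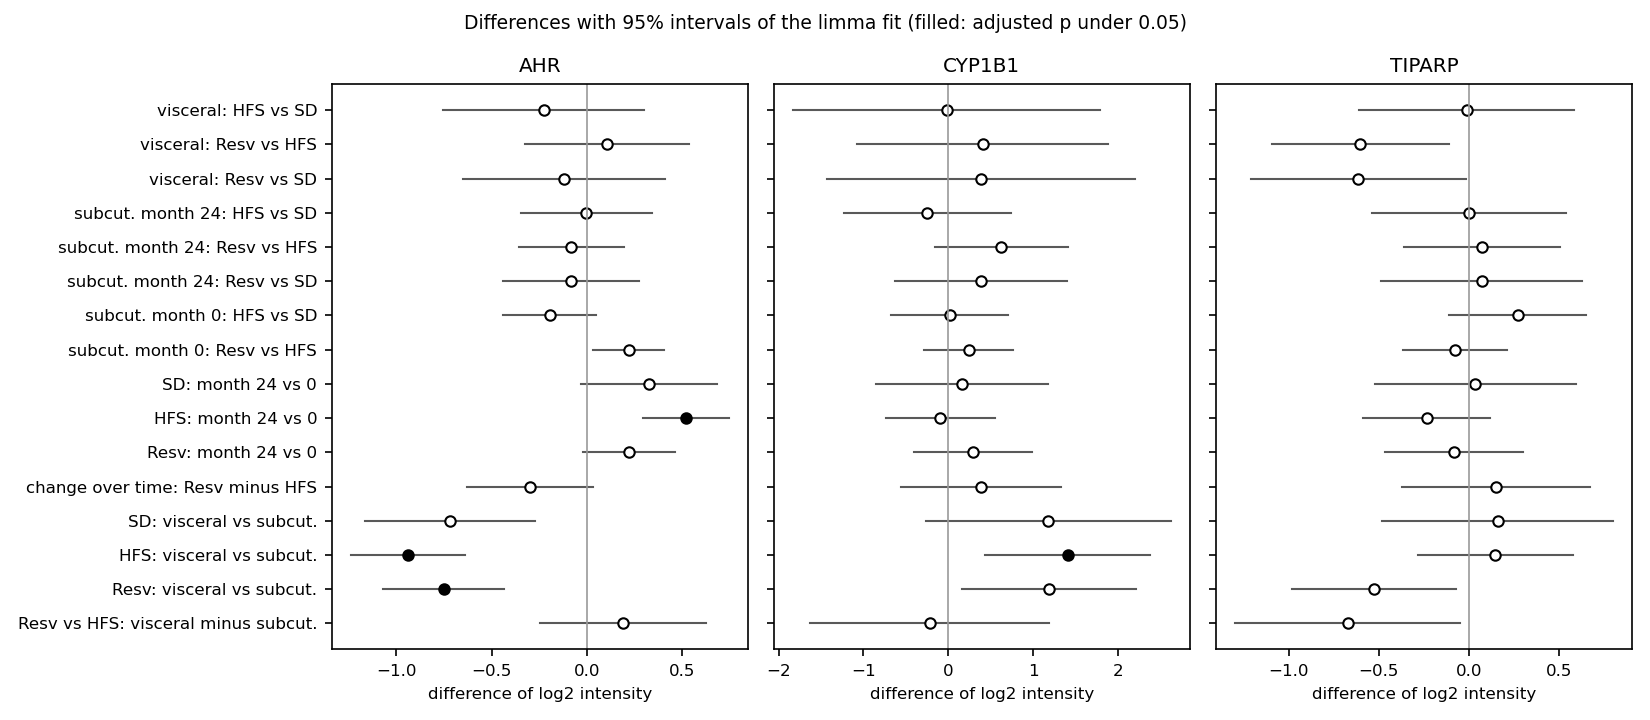
Differences of log2 intensity with 95% intervals of the limma fit for AHR (brighter probe), CYP1B1 and TIPARP in the 16 comparisons (rows); the horizontal axes differ in range between panels. Filled points had an adjusted p under 0.05, which were AHR over time on HFS (0.52), AHR between depots on HFS (-0.94) and with resveratrol (-0.75), and CYP1B1 between depots on HFS (1.40).

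Over the 16 comparisons, members passed in 3, namely HFS over time (1 higher of 3 tested), depots on HFS (1 higher and 1 lower of 3) and depots with resveratrol (1 lower of 3). In the comparisons not yet given a share, 0.00858% of genes passed for HFS and for resveratrol against the standard diet in visceral fat, 0% and 0.791% for the same in subcutaneous fat at month 24, and 0.00824% for HFS against the standard diet at month 0. Over all 45 arrays the 3 measurable members did not move together. As a description over 45 arrays, which share depot, set and normalization, Pearson r was -0.261 between AHR and CYP1B1, -0.05 between AHR and TIPARP and -0.203 between CYP1B1 and TIPARP. Within the 10 visceral arrays AHR and CYP1B1 correlated at 0.638 and within the 35 subcutaneous arrays at 0.128. In the same order AHR and TIPARP correlated at -0.333 and -0.311, and CYP1B1 and TIPARP at -0.238 and 0.059. AHR stands here for its brighter probe, with which its second probe correlated at 0.281 over the 45 arrays. Among 12916 other genes those most like the brighter probe were LILRB1, SDHAP1 and SLC4A5. LILRB1 is an inhibitory leukocyte receptor (r = 0.902, and 0.974 over the 9 group means). SDHAP1 is a pseudogene of a succinate dehydrogenase subunit (0.898 and 0.987), and SLC4A5 is a bicarbonate transporter (0.892 and 0.986). Those most like CYP1B1 were RARRES1, a retinoic acid responder (0.825 and 0.87), ADCYAP1, a neuropeptide (0.767 and 0.911), and BDKRB1, a bradykinin receptor (0.754 and 0.954). Those most like TIPARP were ECM2, a matrix protein (0.716 and 0.682), GOLGA7, a Golgi protein (0.698 and 0.789), and SLC35A3, a nucleotide sugar transporter (0.697 and 0.764).

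Of the chaperones that hold the receptor in the cytoplasm, HSP90AA1 and PTGES3 were higher with resveratrol than on HFS in subcutaneous fat, and HSP90AB1 was at 11.60 ± 0.14 and 11.64 ± 0.18 (-0.04 ± 0.16, adjusted p = 0.962). The receptor complex was tested through 5 genes. In subcutaneous fat at month 24, 2 of the 5 were higher with resveratrol than on HFS and 0 lower (median 0.30, against -0.04 for all genes), where 2.23% of the genes tested passed and 1.96% as higher. PTGES3, the p23 co-chaperone, was at 9.23 to 10.22 (median 9.69) with resveratrol and at 7.62 to 8.41 (median 8.20) on HFS, and rose by 1.66 ± 0.40 (adjusted p = 0.0163). HSP90AA1, the inducible HSP90, was at 8.14 to 8.94 and at 6.60 to 7.42, and rose by 1.43 ± 0.39 (adjusted p = 0.0385). Neither overlapped between the groups, where 4.67% of genes lay wholly higher with resveratrol. Both also passed over time in the resveratrol group, by 1.78 ± 0.35 and 1.91 ± 0.34 (adjusted p = 0.000882 and 0.000248), a comparison that uses the same month 24 arrays and in which 11.4% passed. With the animal as a fixed block these changes were 1.16 (adjusted p = 0.117) and 1.48 (adjusted p = 0.0589), where 79 of the 12130 genes passed. Among set A arrays alone, the only set with month 24, they were 0.93 (adjusted p = 0.0665) and 1.31 (adjusted p = 0.0276). With the number of detected probes as a covariate they were 1.26 (adjusted p = 0.177) and 1.45 (adjusted p = 0.105). Beside the difference from HFS, 7 of 8 tested immediate early genes were above 0 (median 0.64) and 1 passed, DUSP1, a phosphatase induced by stress (2.11, adjusted p = 6.49e-06). The mean level of that list was 7.59 to 9.26 with resveratrol and 7.12 to 8.15 on HFS, and its part in the result was not tested. More probes were detected in the resveratrol arrays, 17117 to 18673 against 15712 to 16322. With this number as a covariate the differences from HFS were 1.23 (adjusted p = 0.42) and 1.05 (adjusted p = 0.515). With the replicate block, which between diets joins different animals of the same number, they were 1.70 (adjusted p = 0.153) and 1.51 (adjusted p = 0.155), where 0 of the 12130 genes passed. The call for PTGES3 was lost without resveratrol replicates 2 (1.55, adjusted p = 0.077) or 4 (1.49, adjusted p = 0.122), or HFS replicates 3 (1.55, adjusted p = 0.0544) or 4 (1.57, adjusted p = 0.0523). That for HSP90AA1 was lost without resveratrol replicate 1, 2 or 4 or HFS replicate 2, 3, 4 or 5, at 1.30 to 1.51 and adjusted p values from 0.0512 to 0.207, and with the mean of its probes (0.96, adjusted p = 0.077).

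In visceral fat 0 of the 5 passed by limma between resveratrol and HFS. An unadjusted p under 0.05 was found for HSP90AB1 and SRC, and for CUL4B, whose difference is not read. Of all genes tested 0% passed there and 23.7% had such a p. HSP90AB1, the constitutive HSP90, was at 12.02 to 12.58 with resveratrol and 12.77 to 12.92 on HFS, a difference of -0.66 ± 0.15 (adjusted p = 0.102). SRC, a kinase released from the complex, was at 7.24 to 8.64 and 5.15 to 7.13 (1.83 ± 0.54, adjusted p = 0.106), and CUL4B, a ubiquitin ligase scaffold, was detected on 2 of 4 resveratrol and 0 of 4 HFS arrays. It was kept through the resveratrol arrays alone, so its difference is not read. HSP90AA1 differed by -0.51 ± 0.28 (adjusted p = 0.285) and PTGES3 by -0.26 ± 0.23 (adjusted p = 0.499). HSP90AB1 and SRC did not overlap between the groups, which held for 14.5% of genes. HSP90AB1 and SRC passed without resveratrol replicate 1, at -0.79 and 2.11 (adjusted p = 0.0125 and 0.0349), where 1515 of the 11657 genes passed. Without single arrays the adjusted p of HSP90AB1 and SRC reached 0.257. With only the arrays compared HSP90AB1 passed too (-0.66, adjusted p = 0.0484), where 311 of the 11657 genes passed. The resveratrol effect in visceral minus subcutaneous fat was -1.94 ± 0.54 for HSP90AA1 (adjusted p = 0.0376) and -1.92 ± 0.54 for PTGES3 (adjusted p = 0.0427), where 2.7% of genes passed. Without single arrays these adjusted p values ran up to 0.0913 and 0.113.

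Between depots the complex differed in both directions. On HFS, HSP90AB1 was higher in visceral fat by 1.20 ± 0.16 (adjusted p = 4.68e-07) and PTGES3 lower by -1.58 ± 0.37 (adjusted p = 0.00206), 1 each of 5 tested, where 18.7% of genes passed. With resveratrol, where 35.8% of genes passed, 2 were higher and 2 lower, HSP90AB1 by 0.58 ± 0.16 (adjusted p = 0.00515), SRC by 1.83 ± 0.49 (adjusted p = 0.00307), HSP90AA1 by -2.76 ± 0.39 (adjusted p = 6.18e-07) and PTGES3 by -3.50 ± 0.39 (adjusted p = 7.52e-09). Under median scaling HSP90AB1 did not pass with resveratrol (0.59, adjusted p = 0.249). On the standard diet HSP90AB1 was higher by 0.87 ± 0.23 (adjusted p = 0.0325). This call was lost in 7 of 13 alternatives, with adjusted p values up to 0.599, and 1 of them used only the arrays compared (0.87, adjusted p = 0.519). The difference was 0.70 without visceral replicate 2, 0.65 without subcutaneous replicate 1 and 1.10 without subcutaneous replicate 2.

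Further targets of the receptor, 14 listed and 10 tested, gave 0 passing between resveratrol and HFS in either depot, with medians of -0.02 in visceral and 0 in subcutaneous fat. In visceral fat 2 had an unadjusted p under 0.05 by limma and in subcutaneous fat 0. Of all genes tested 23.7% and 13.3% had such a p, and 0% and 2.23% passed. SLC7A5, an amino acid transporter that carries tryptophan metabolites, was detected on 3 of 4 visceral resveratrol arrays, at 4.61 to 8.96 (median 7.33), and on 1 of 4 HFS arrays, at 4.42 to 5.46 (median 4.76). The difference was 2.21 ± 0.74 (adjusted p = 0.124) and the groups overlapped. Without resveratrol replicate 1 it was 3.03 (adjusted p = 0.0125), where 1515 of the 11657 genes passed, and without replicate 3 it was 1.58 (adjusted p = 0.271). SLC7A5 was detected on 0 of 4 and 0 of 5 subcutaneous arrays of these diets at month 24, so a resveratrol effect there was not measurable. STC2, a secreted glycoprotein, was at 8.02 to 8.99 and 8.99 to 9.23 in visceral fat (-0.66 ± 0.23, adjusted p = 0.136). GSTA2, a glutathione transferase, was higher in visceral than subcutaneous fat on HFS (7.10 ± 0.27 against 5.64 ± 0.47, 1.46 ± 0.34, adjusted p = 0.00209) and with resveratrol (0.98 ± 0.36, adjusted p = 0.0306). Of all genes tested 18.7% and 35.8% passed between depots in these diets. The resveratrol call for GSTA2 was lost in 8 of 17 alternatives. Among these were leaving out visceral resveratrol replicate 1 (0.74, adjusted p = 0.135) or 4 (0.93, adjusted p = 0.0672), leaving out subcutaneous resveratrol replicate 3 (0.88, adjusted p = 0.0861) or 4 (0.92, adjusted p = 0.0759), and median scaling (0.82, adjusted p = 0.17).

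Enzymes that make receptor ligands from tryptophan, 9 listed and 6 tested, gave 0 passing by limma between resveratrol and HFS. None had an unadjusted p under 0.05 in either depot. Of all genes tested 23.7% in visceral and 13.3% in subcutaneous fat had such a p. IDO1, which opens the kynurenine pathway, was higher in visceral than in subcutaneous fat on HFS (8.74 ± 0.50 against 7.17 ± 0.76, 1.57 ± 0.48, adjusted p = 0.0176) and with resveratrol (8.38 ± 0.74 against 6.66 ± 0.71, 1.72 ± 0.50, adjusted p = 0.00668). Of all genes tested 18.7% passed between depots on HFS and 35.8% with resveratrol. On the standard diet IDO1 differed by 0.55 ± 0.71 (adjusted p = 0.761). With the mean of its probes the resveratrol call was lost (1.17, adjusted p = 0.0746). The HFS call was lost without visceral replicate 3 (1.37, adjusted p = 0.0698) or subcutaneous replicate 4 (1.32, adjusted p = 0.0566). The T cell markers CD3D and CD2 had a mean level of 7.19 to 8.22 in visceral and 5.84 to 6.85 in subcutaneous fat on HFS, with 1 of 2 passing (CD2, 1.42, adjusted p = 9.78e-05), and their part in the result was not tested. KYNU, the kynureninase, was at 6.98 to 10.89 in visceral fat with resveratrol and 8.34 to 9.26 on HFS (0.42 ± 0.66, adjusted p = 0.707).

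Other bHLH-PAS genes and coactivators that share ARNT or work with it were 10 listed, of which 7 were tested within a depot. None passed by limma between resveratrol and HFS, with 1 and 0 at an unadjusted p under 0.05 in visceral and subcutaneous fat. Of all genes tested 23.7% and 13.3% had such a p. NCOA1, a coactivator, differed by -0.56 ± 0.21 in visceral fat (adjusted p = 0.149). HIF1A, the hypoxia factor that also pairs with ARNT, was at 6.67 to 8.56 with resveratrol and 6.71 to 7.11 on HFS (1.12 ± 0.51, adjusted p = 0.211). ARNT2, a relative of ARNT with its own gene, was detected on all arrays of the 9 groups at means from 5.88 to 6.30 and differed by -0.42 ± 0.28 in visceral fat (adjusted p = 0.372). Of the hypoxia targets, 10 listed, 7 were tested in visceral fat with 0 passing by limma and 1 at an unadjusted p under 0.05, ADM, a vasodilator peptide (-0.73 ± 0.24, adjusted p = 0.122). In subcutaneous fat, where 1.96% of all genes passed as higher, 8 were tested and 1 passed as higher with resveratrol. This was P4HA1, a prolyl hydroxylase of collagen, at 5.66 to 6.99 against 4.58 to 5.40 (1.17 ± 0.29, adjusted p = 0.0208). With the number of detected probes as a covariate it was 0.66 (adjusted p = 0.572), and it was lost without resveratrol replicate 2 (1.08, adjusted p = 0.0886) or 4 (0.92, adjusted p = 0.206) or HFS replicate 4 (1.04, adjusted p = 0.0768). It was lost too with only the arrays compared (1.17, adjusted p = 0.0615) and with the replicate block (1.20, adjusted p = 0.254), where 0 of all genes passed. Beside it the fibroblast markers had a mean level of 10.76 to 12.13 against 10.21 to 11.64, with 1 of 6 passing, whose part in the result was not tested. Between depots with resveratrol, 3 measurable hypoxia targets were lower in visceral fat, where 15.8% of genes passed as lower. ADM differed by -1.80 ± 0.40 (adjusted p = 0.000555), BNIP3, a mitophagy receptor, by -0.90 ± 0.25 (adjusted p = 0.00476) and PDK1, a kinase that inhibits pyruvate dehydrogenase, by -0.69 ± 0.25 (adjusted p = 0.0296). BNIP3 and PDK1 were each detected on 2 of 4 visceral arrays. The call for PDK1 was lost without visceral replicate 1 (-0.62, adjusted p = 0.0762) or 2 (-0.63, adjusted p = 0.078), without subcutaneous replicate 2 (-0.61, adjusted p = 0.085) or 3 (-0.69, adjusted p = 0.0508), and with the number of detected probes as a covariate (-0.56, adjusted p = 0.132). P4HA1 was detected on 0 of the 10 visceral arrays and is not counted. On HFS 0 of 8 hypoxia targets passed between depots by limma, and 0 had an unadjusted p under 0.05. Of all genes tested 18.7% passed there and 31.4% had such a p.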

How the data were processed

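Bead-array intensity values, 1 per probe and array and not scaled between arrays, were deposited by the authors. The deposited table also holds a detection p-value for each probe, and GenomeStudio 1.9.0 is named per the submitters' processing notes. The authors also deposited a score table, which equals the log intensity standardised within each array to within 5e-10. The annotation gave 30113 probes with 1 symbol, 8 with several and 17110 with none, and 92 probes empty in the subcutaneous arrays were left out.

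The intensities were background-corrected and quantile-normalized over the 45 arrays with neqc (offset 16) and taken to log2. A probe was kept if, in at least 1 group of the fit, it was detected (p under 0.05) on no fewer arrays than undetected. The brightest probe stood for a gene. Differences were tested with limma 3.58.1 in R 4.3.3 in separate fits of the visceral (10), subcutaneous (35) and all 45 arrays, with Benjamini-Hochberg adjustment over all genes and a threshold of 0.05. The test was also run on simulated shifts, in a single run with independent normal noise and 1 spread per gene for all groups. Over time on HFS it recovered 25.4% of those of 0.5, 76.1% of those of 1 and 100% of those of 2. In visceral resveratrol against HFS it recovered 3, 43.3 and 86.4%. Repeated animals, array sets and spreads that differ between groups were left out, so these shares do not give the power on the real arrays.

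Replicate numbers came from the sample titles. Of 11 same-numbered pairs over time 9 were the same animal by column name, with residual correlations from 0.095 to 0.481, and the other 2 pairs had -0.332 and -0.013. The fits reported used no pairing. In the alternatives the animal was a fixed block over time and a random block between depots, and results with the animal as a block are given where they change a call. The replicate number was used as a block too. Between diets equal numbers are different animals, so that block carries no pairing there. No pair of arrays was identical. The column names hold 25 animal names for 24 animals. Where nothing more is stated, p-values measure the spread between these arrays.

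The members and lists were chosen with earlier results of these data known. Besides the members, up to 3 genes per list with the smallest p for resveratrol against HFS in each depot were named, and the 3 genes most like each member. Genes named for other comparisons were added after their values were seen. The alternatives covered normalization, background, filter, probe choice, arrays left out, blocks, array set and detected probes. The values of the second AHR probe and of undetected members were added after seeing the data.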

Additional observations from a re-analysis of the deposited data

Results flagged for a closer look

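The brighter AHR probe stood at 11.62 on replicate 8 of the subcutaneous month 0 HFS animals, while the other 9 arrays lay between 11.91 and 12.16. Its gap to the nearest array was 0.527 of the group's range, above Dixon's critical value for 10 arrays. Among 28 groups of probe values looked at in this way, chance gives about 1 in 20.

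The resveratrol effect against HFS differed between visceral and subcutaneous fat for HSP90AA1 (-1.94, limma adjusted p = 0.0376) and PTGES3 (-1.92, adjusted p = 0.0427), where the difference between the depots was itself tested in the fit of all 45 arrays. For SLC7A5 the same term came to 2.20. The gene was detected on 3 of 4 visceral resveratrol arrays, but on 1 of 4 visceral HFS arrays and on 0 of 4 and 0 of 5 subcutaneous arrays. The groups set against visceral resveratrol thus lay largely at background, and the term is not read as a difference.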

How the results depend on the processing

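No result for AHR, CYP1B1 or TIPARP that passed in the fits reported turned its sign under an alternative that kept the same AHR probe. The reversals below are of values that did not pass, except the second AHR probe between depots with resveratrol (0.10). Median scaling turned AHR to 0.13 for HFS minus standard diet (subcutaneous month 24), 0.32 and 0.46 for resveratrol minus HFS and minus standard diet there, 0.15 for HFS minus standard diet at month 0, 0.31 for the resveratrol minus HFS change over time and -0.29 for the resveratrol effect between depots; it turned CYP1B1 over time on the standard diet to -0.06, and TIPARP over time to -0.22 on the standard diet and 0.10 with resveratrol. The deposited scores turned CYP1B1 to 0.01 (visceral HFS minus standard diet), AHR to -0.06 (visceral resveratrol minus HFS), -0.02 (resveratrol over time) and 0.03 (subcutaneous HFS minus standard diet), and TIPARP to -0.01 there. The number of detected probes as a covariate turned CYP1B1 to 0.88 (visceral HFS minus standard diet) and -0.80 (visceral resveratrol minus HFS), AHR to 0.02, -0.22 and 0.05 (the same 2 comparisons and subcutaneous resveratrol minus HFS) and TIPARP to -0.01 (subcutaneous HFS minus standard diet). The replicate block turned CYP1B1 to 0.43 and -0.74 (visceral HFS and resveratrol minus standard diet) and 0.03 (subcutaneous HFS minus standard diet), and TIPARP to -0.19 (subcutaneous resveratrol minus standard diet) and -0.16 (difference of changes over time). The animal as a fixed block turned that TIPARP difference to -0.17. Set A alone turned it to -0.15, and at month 0 turned resveratrol minus HFS to 0.22 (TIPARP) and -0.02 (AHR). The set as a covariate turned TIPARP over time on the standard diet to -0.02, and leaving out the background correction brought CYP1B1 at month 0 (HFS minus standard diet) to 0.

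The number of members passing over time on HFS, 1 in the report, was 0 under median scaling, the mean of a gene's probes, the replicate block, the animal block and set A alone. In the 2 block fits 0 of the 12130 genes passed. Between depots the number of members passing was 1 in place of 2 on HFS under median scaling. With resveratrol it was 0 in place of 1 under median scaling and the mean of probes, and 2 with no background correction or no filter. With no filter the added member was CYP1A1, which was below detection on every array and is not read as a change. Leaving out single arrays gave 0 to 1 over time on HFS and between depots on the standard diet, and 1 to 2 between depots on HFS and with resveratrol.

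As single arrays were left out, values ran as follows in visceral fat. HFS minus standard diet ran from -0.52 to 0.48 (CYP1B1), -0.09 to 0.07 (TIPARP) and -0.56 to 0.10 (AHR). Resveratrol minus HFS ran from -0.02 to 1.15 (CYP1B1) and -0.01 to 0.26 (AHR), and resveratrol minus standard diet from -0.12 to 1.12 and -0.45 to 0.21. In subcutaneous fat at month 24, HFS minus standard diet ran from -0.15 to 0.15 (TIPARP) and -0.09 to 0.09 (AHR), resveratrol minus HFS from -0.07 to 0.25 (TIPARP), and resveratrol minus standard diet from -0.08 to 0.25 (TIPARP) and -0.17 to 0.01 (AHR). At month 0, HFS minus standard diet ran from -0.33 to 0.36 (CYP1B1). Over time, CYP1B1 ran from -0.18 to 0.51 (standard diet) and -0.24 to 0.05 (HFS), and TIPARP from -0.11 to 0.19 (standard diet) and -0.22 to 0.10 (resveratrol). The depot difference of the resveratrol effect on CYP1B1 ran from -0.64 to 0.52.

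The number of all genes passing ran from 0 to 1515 for visceral resveratrol against HFS (0 in the report), from 0 to 1035 in subcutaneous fat (271), from 0 to 543 over time on HFS (122) and from 1442 to 3077 between depots on HFS (2421). Groups of 2 to 5 arrays, human probes and 3 undetected members limit what can be read. The cause of these changes was not tested.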
